A study of Homo sapiens with 11 samples.

Results

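The genes described here encode structural subunits of the proteasome that carry no catalytic site, together with chaperones that help to build the particle. They were taken by symbol from the table of raw counts, and all 36 listed symbols were found among 38557 annotated genes. The list holds 7 genes of the 20S alpha ring (PSMA1 to PSMA7) and 3 non-catalytic genes of the 20S beta ring (PSMB1, PSMB2 and PSMB4). It further holds 9 genes of the 19S base (PSMC1, PSMC2, PSMC3, PSMC5, PSMC6, PSMD1, PSMD2, PSMD4 and ADRM1) and 9 of the 19S lid (PSMD3, PSMD6, PSMD7, PSMD8, PSMD11, PSMD12, PSMD13, PSMD14 and SEM1). The remaining 8 are 4 chaperones of 20S assembly (PSMG1 to PSMG4) and 4 chaperones of 19S base assembly (PSMD5, PSMD9, PSMD10 and PAAF1). Sub-complex is used below for each of these 6 groups, and subunits for the 28 genes of the first 4.

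RNA was sequenced from MOLM-13, an acute myeloid leukemia cell line whose rearranged KMT2A gene keeps a leukemic expression program active. Cells received DMSO as solvent control (4 libraries), the Menin inhibitor MI-503 at 1 µM (4 libraries), or MI-503 at that dose plus the PSMB8 inhibitor PR-957 at 100 nM (3 libraries, replicates 1, 2 and 4), each for 72 h. The last group is called the combination, and PR-957 alone was not analysed here. All libraries come from this single cell line, and since nothing states that replicates were separate cultures, p-values measure only the spread between these samples, which may be technical.

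The proteasome is the large protease that degrades proteins tagged with ubiquitin. Its 20S core is a barrel of stacked rings, in which the alpha subunits form the outer gate and the beta subunits the inner chamber where peptide bonds are cut. The 19S particle caps the barrel. Its base unfolds substrates with a ring of ATPases held by the scaffolds PSMD1 and PSMD2 and captures ubiquitin through the receptors PSMD4 and ADRM1, while its lid holds the deubiquitinase PSMD14 that removes the tag. Dedicated chaperones guide assembly and leave the finished particle. In many cells a loss of proteasome activity is followed by transcription of the subunit genes through the factor NFE2L1, which binds antioxidant response elements (ARE) in their promoters.

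Promoter sequences are shown first, because members of a complex that move together can be set side by side at this level. RefSeq promoters (GRCh38.p14, 250 bases before to 50 bases after a transcription start) matched 32 of the 36 genes, with 41 promoters in all. PSMA7, PSMB1, PSMD4 and PSMG3 did not match. For each sub-complex, the gene with the smallest adjusted p between the combination and MI-503 alone is printed 5′ to 3′ on the strand of the gene. Capitals mark matches to the ARE core, searched as TGACNNNGC or TGATNNNGC on both strands. The regions are chr11:14520337-14520636 on the minus strand for PSMA1, chr1:151399323-151399622 on the plus strand for PSMB4 and chr20:62302646-62302945 on the plus strand for ADRM1, of which the earlier of a pair of overlapping promoters is shown. They are chr17:32444260-32444559 on the plus strand for PSMD11, chr6:3258697-3258996 on the plus strand for PSMG4 and chr12:121888540-121888839 on the plus strand for PSMD9.
PSMA1: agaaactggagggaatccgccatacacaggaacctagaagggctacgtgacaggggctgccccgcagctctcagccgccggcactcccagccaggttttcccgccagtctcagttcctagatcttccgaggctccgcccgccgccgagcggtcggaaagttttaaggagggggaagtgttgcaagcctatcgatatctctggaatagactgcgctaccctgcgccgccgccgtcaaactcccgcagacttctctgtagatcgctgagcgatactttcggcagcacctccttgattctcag
PSMB4: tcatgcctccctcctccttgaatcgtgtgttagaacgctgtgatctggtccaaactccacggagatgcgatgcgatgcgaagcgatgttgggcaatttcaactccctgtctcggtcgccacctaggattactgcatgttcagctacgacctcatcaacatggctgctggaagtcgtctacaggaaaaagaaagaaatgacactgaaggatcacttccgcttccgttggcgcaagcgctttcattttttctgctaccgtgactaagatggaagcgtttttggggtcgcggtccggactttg
ADRM1: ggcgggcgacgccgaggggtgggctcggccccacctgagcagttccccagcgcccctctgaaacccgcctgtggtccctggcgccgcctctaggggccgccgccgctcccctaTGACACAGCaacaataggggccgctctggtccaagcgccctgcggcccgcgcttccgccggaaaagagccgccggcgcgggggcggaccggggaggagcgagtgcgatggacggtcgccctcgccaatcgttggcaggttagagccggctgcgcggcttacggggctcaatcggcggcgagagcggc
PSMD11: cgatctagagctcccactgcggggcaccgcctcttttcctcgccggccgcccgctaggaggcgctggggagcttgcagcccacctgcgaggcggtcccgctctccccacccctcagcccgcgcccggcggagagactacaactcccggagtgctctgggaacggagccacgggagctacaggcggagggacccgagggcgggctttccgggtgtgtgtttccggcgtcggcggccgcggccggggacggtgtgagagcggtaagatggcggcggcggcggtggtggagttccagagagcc
PSMG4: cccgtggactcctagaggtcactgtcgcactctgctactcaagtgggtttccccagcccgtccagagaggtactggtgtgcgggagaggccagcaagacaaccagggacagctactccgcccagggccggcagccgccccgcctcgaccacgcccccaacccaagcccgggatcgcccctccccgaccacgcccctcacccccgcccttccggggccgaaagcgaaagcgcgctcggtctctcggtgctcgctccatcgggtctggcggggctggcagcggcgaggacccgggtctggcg
PSMD9: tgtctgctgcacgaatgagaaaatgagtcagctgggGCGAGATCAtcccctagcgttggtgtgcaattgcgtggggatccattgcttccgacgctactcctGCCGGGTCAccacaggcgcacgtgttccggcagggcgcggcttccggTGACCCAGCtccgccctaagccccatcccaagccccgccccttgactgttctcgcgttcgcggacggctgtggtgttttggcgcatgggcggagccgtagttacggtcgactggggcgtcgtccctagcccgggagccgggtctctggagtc

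An ARE core was found in the promoters of 12 of the 32 matched genes (37.5%), beside 23.5% of all 27305 genes in the same RefSeq table. In the printed set it occurred once in ADRM1, as TGACACAGC at positions −137 to −129 from the start, and 3 times in PSMD9, whereas no match was present in PSMA1, PSMB4, PSMD11 or PSMG4. Between the combination and MI-503 alone, the 12 genes with a match had a median log2 fold change of 0.58 and the 20 without a match one of 0.93. Matches fell in 2 of 3 chaperones of 20S assembly and 2 of 4 of 19S base assembly that had a promoter. They fell in 2 of 6 alpha, 0 of 2 beta, 3 of 8 base and 3 of 9 lid genes. The part of this make-up in the difference between the medians was not tested. Such a match is a run of letters and was not tested as a site. A CCAAT box was found for 18 genes (56.2%, beside 39.7% of all genes in the table).

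The letters CCGGAAGT, the core bound by ETS factors, were found on either strand in 8 of the 32 genes (25.0%), beside 4.95% of all genes in the table. Counted per promoter rather than per gene, the shares were 19.5% of 41 and 4.14% of 35116. The RefSeq table was not limited to genes expressed in these cells. A share over expressed genes alone was not computed, for these letters or for ARE and CCAAT. All 8 matches lay between position −25 and position 24 from the transcription start. Each match is printed in capitals with 15 bases on either side, on the strand of the gene, to show how close to the start they lie. These windows were chosen after the values were seen. The windows are chr2:161308406-161308443 (PSMD14), chr7:103347604-103347641 (PSMC2), chr11:236949-236986 (PSMD13), chr11:73876959-73876996 (PAAF1), chr14:35292383-35292420 (PSMA6), chr14:90256547-90256584 (PSMC1), chr17:67366564-67366601 on the minus strand (PSMD12) and chr19:38374538-38374575 (PSMD8), the others being on the plus strand.
PSMD14: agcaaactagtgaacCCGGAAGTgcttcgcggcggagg
PSMC2: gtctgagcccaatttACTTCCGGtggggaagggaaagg
PSMD13: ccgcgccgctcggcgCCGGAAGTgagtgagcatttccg
PAAF1: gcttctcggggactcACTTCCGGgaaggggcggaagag
PSMA6: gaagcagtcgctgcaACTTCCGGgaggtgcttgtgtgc
PSMC1: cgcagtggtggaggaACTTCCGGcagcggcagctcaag
PSMD12: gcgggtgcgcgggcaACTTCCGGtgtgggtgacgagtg
PSMD8: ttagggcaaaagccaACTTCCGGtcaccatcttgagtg
These 8 genes spanned log2 fold changes from −0.01 (PAAF1) to 1.11 (PSMC2 and PSMD14) between the combination and MI-503 alone, with a median of 0.77, beside 0.72 for the 24 genes without the letters.

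The libraries held between 18891243 and 41153974 counted fragments. Combination replicate 1 stood apart from its group, with 36 of 10041 expressed genes more than 2-fold from the mean of the other replicates, compared with 4 and 13 genes in combination replicates 2 and 4 and at most 1 gene in any DMSO or MI-503 library. None of the 36 proteasome genes deviated by 2-fold in any library. Combination replicate 2 lay below the mean of the other combination replicates for 32 of the 36 genes, with a median deviation of −0.14 over the 36 on the log2 scale. Without combination replicate 1, 24 genes were called higher and 5 lower in the combination against DMSO (median 0.45) and 29 higher and 3 lower against MI-503 (median 0.68), the same counts as with it. All 6 markers of the labelled cell type (PTPRC, CD33, SPI1, FLT3, MEIS1 and MPO) were detected at 12.5 CPM or more. CPM are counts scaled to library totals that are normalised with TMM factors. These markers moved with treatment. In MI-503 against DMSO their log2 fold changes were −1.37 (MEIS1), −0.49 (FLT3), 0.92 (MPO), 0.25 (PTPRC and CD33) and 0.23 (SPI1). In the combination against DMSO they ran from −1.62 (MEIS1) to 0.41 (SPI1). Of the markers of other cell types, CD3E, MS4A1 and EPCAM were at or near 0 in every library. PECAM1, an endothelial marker that myeloid cells also carry, moved with treatment as well. It lay at 46.5 to 55.7 CPM in DMSO, 106.3 to 112.0 CPM in MI-503 and 125.1 to 183.3 CPM in the combination. The part of these marker shifts in the results below was not tested.

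As a share of all counted fragments, the 36 genes together took 0.410% to 0.428% in the 4 DMSO libraries, 0.336% to 0.357% in the 4 MI-503 libraries and 0.605% to 0.666% in the 3 combination libraries. The groups did not overlap. In such bulk samples fewer cells that express a gene and less RNA per cell cannot be told apart.

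**Figure D1:**
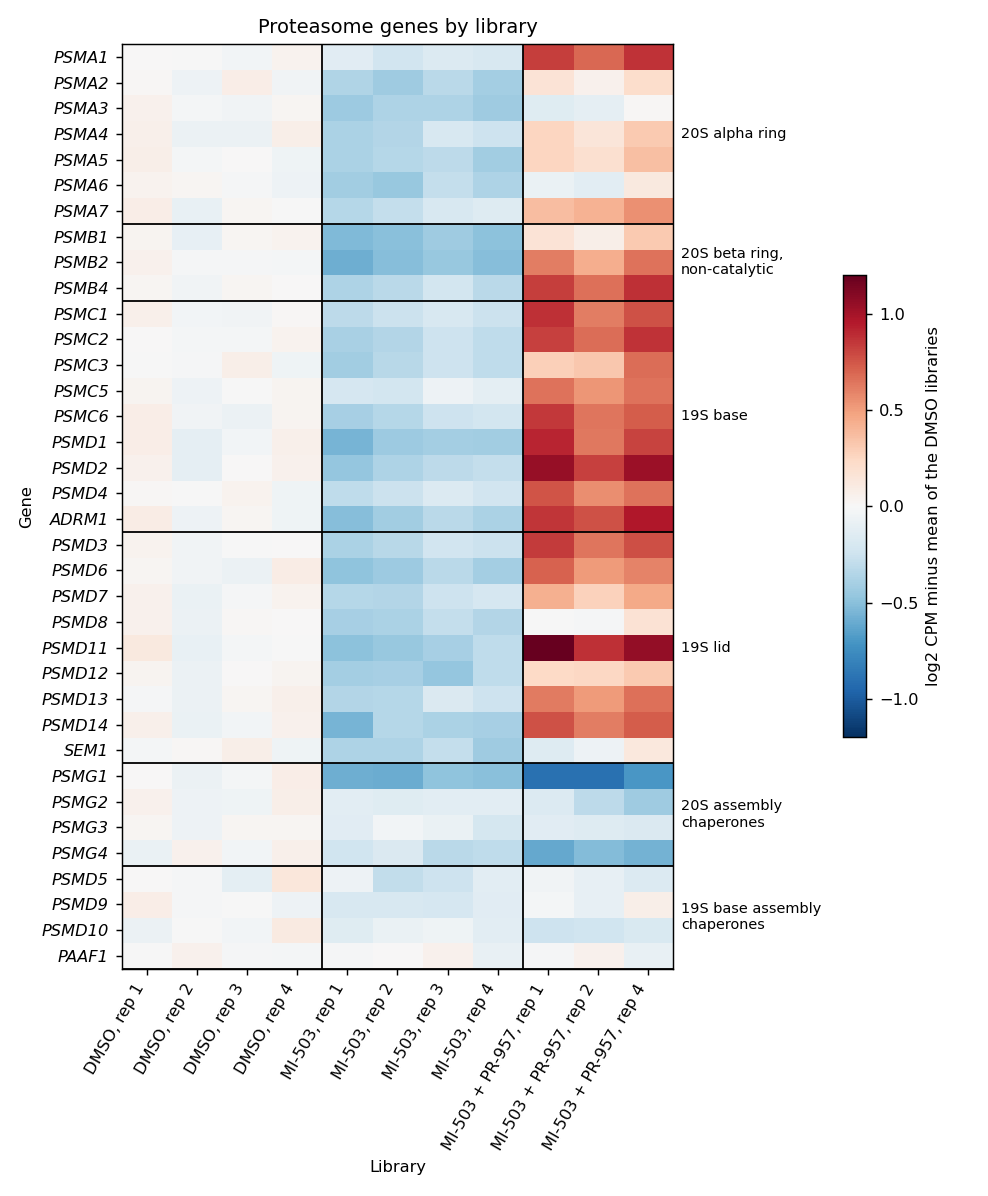
Heat map of the 36 genes (rows, grouped by sub-complex) in the 11 libraries (columns, grouped by treatment). Color gives log2 CPM minus the mean of the 4 DMSO libraries. Subunits are blue in MI-503 and mostly red in the combination, where PSMD11 reaches 1.19 in replicate 1, whereas PSMG1 and PSMG4 are blue in both treatments.

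The first comparison asks what inhibition of Menin alone did to the proteasome genes. Transcripts of all parts of the particle were lower in MI-503. All 28 subunit genes were called lower than in DMSO, a call being a Benjamini-Hochberg adjusted p under 0.05 in the quasi-likelihood test of edgeR over all tested genes. Their median log2 fold change was −0.36 (a fold of 0.782), with values between −0.51 for PSMB2 and −0.15 for PSMC5. Of the 8 chaperones, 4 were called lower (PSMG1, PSMG4, PSMD5 and PSMD9), and PSMG2 (−0.13), PSMG3 (−0.11), PSMD10 (−0.10) and PAAF1 (−0.01) did not pass the test. In all, 32 of the 36 genes were called lower and none was called higher by edgeR, where 29.3% of all 14683 tested genes were called lower and 22.0% higher. In 31 of the 36 every MI-503 library lay below every DMSO library, as in 29.1% of all tested genes. The median over the 36 was −0.31, beside −0.03 over all tested genes.

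The second comparison, of the combination with MI-503 alone, asks what PR-957 added. All 28 subunit genes were called higher, with a median of 0.89 (a fold of 1.85) and a range from 0.32 for PSMA3 to 1.46 for PSMD11. Of the chaperones, 1 was called higher (PSMD9, 0.17), 3 were called lower (PSMG1, PSMG2 and PSMG4), and 4 did not pass the test. Over all tested genes 23.6% were called higher and 23.8% lower, and the median was 0.00, beside 0.68 over the 36 genes. For 29 of the 36 every combination library exceeded every MI-503 library, as was the case for 23.8% of all tested genes.

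The third comparison sets the combination against DMSO. Here 24 genes were called higher, all of them subunits, and 5 were called lower, all of them chaperones (PSMG1, PSMG2, PSMG3, PSMG4 and PSMD10). In the background 31.7% of tested genes were called higher and 32.8% lower. The combination libraries lay wholly above DMSO for 23 of the 36, beside 29.3% of all tested genes. The median over the 36 was 0.41 and over all tested genes 0.01. The 3 comparisons share libraries, so that their values are not independent of each other. Across them, the sequence lower in MI-503, higher in the combination than in MI-503, and higher than in DMSO was held by 24 genes, and 5 further genes (PSMA3, PSMA6, PSMD8, SEM1 and PSMD9) were lower in MI-503 and higher in the combination than in MI-503 without being called against DMSO. How many of all tested genes held either sequence was not counted, and the shares of single comparisons do not give it.

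**Figure D2:**
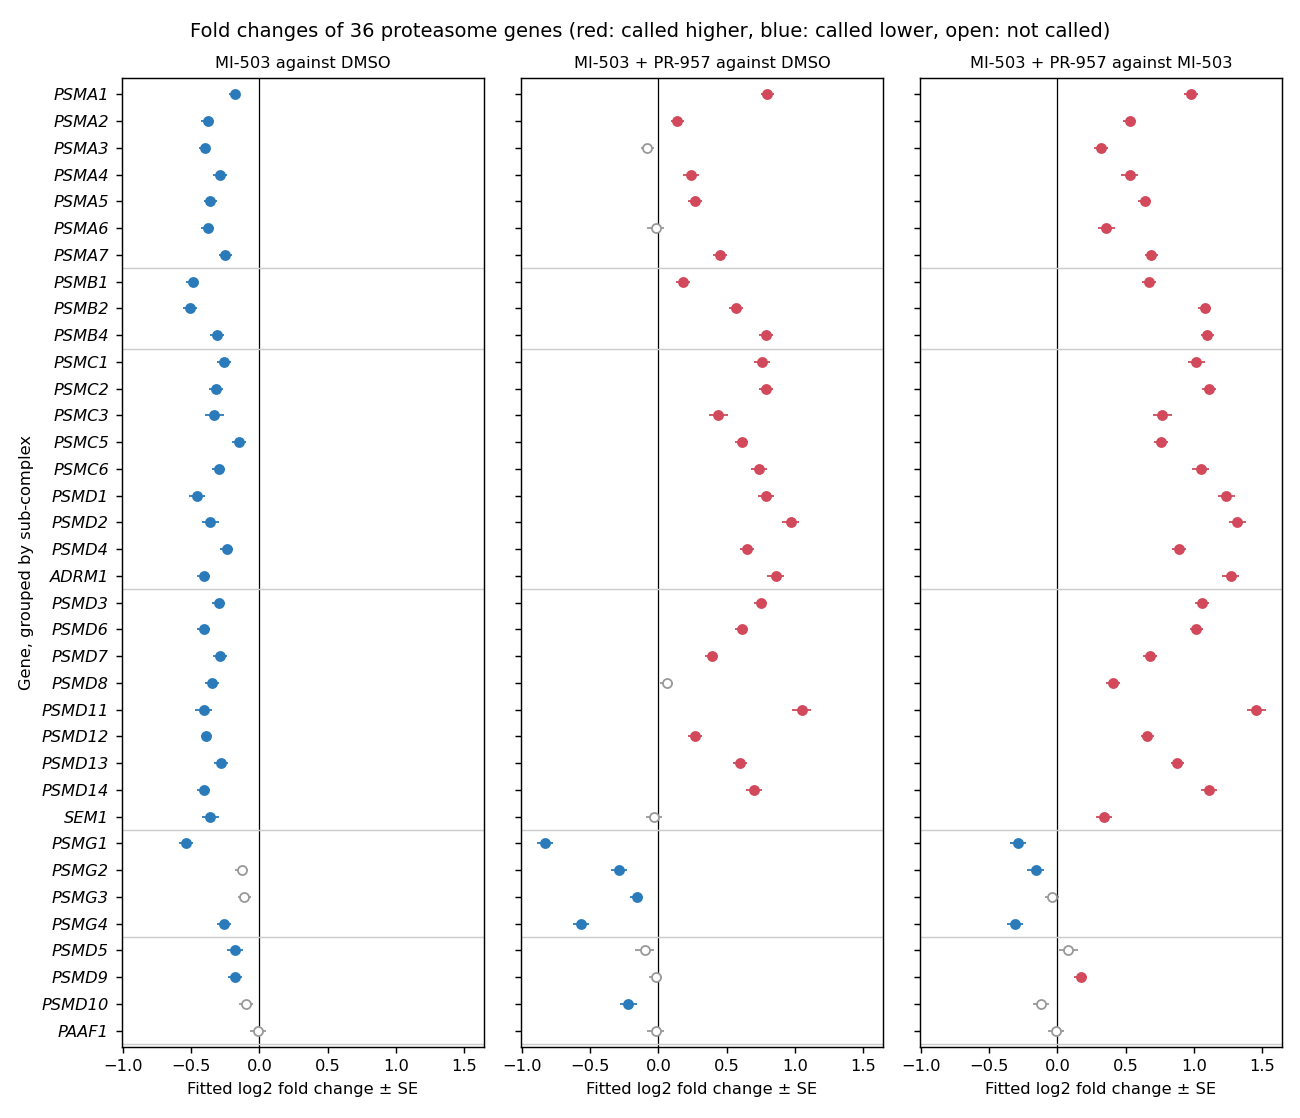
Fitted log2 fold change with SE of each of the 36 genes in the 3 comparisons, with horizontal lines between sub-complexes. Red points were called higher and blue points lower at an edgeR adjusted p under 0.05, and open points were not called. All 28 subunits are blue in the left panel and red in the right panel, and the chaperones at the bottom stay between −0.31 and 0.17 in the right panel.

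Sub-complexes differed in how far they moved, as described here by counts and medians and without a test. In the 19S base, all 9 genes were called higher in the combination than in DMSO (median 0.76) and than in MI-503 (median 1.05). The 3 beta genes had medians of 0.57 and 1.08 in the same comparisons, and the 9 lid genes 0.60 and 0.88. The alpha ring had the lowest medians of the subunit groups, 0.24 and 0.53, and 5 of its 7 genes passed the test against DMSO. Of the 9 lid genes 7 did so. For the 20S assembly chaperones the medians were −0.43 against DMSO and −0.22 against MI-503, and for the 19S base assembly chaperones −0.06 and 0.04.

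Library by library, sub-complexes were set side by side on the mean over genes of log2 CPM relative to the DMSO mean. In combination replicates 1, 2 and 4 the base stood at 0.79, 0.62 and 0.79, the lid at 0.51, 0.40 and 0.54, the beta genes at 0.53, 0.39 and 0.61, and the alpha ring at 0.24, 0.18 and 0.35. The base was highest and the alpha ring lowest in all 3 libraries, whereas the beta genes lay above the lid in replicates 1 and 4 and below it in replicate 2. The 20S assembly chaperones stood at −0.45, −0.47 and −0.47 in these libraries, below every MI-503 library (−0.29 to −0.24), and the 19S base assembly chaperones at −0.08, −0.09 and −0.09. In MI-503 the subunit groups ranged from −0.49 to −0.37 for the beta genes, −0.42 to −0.31 for the lid, −0.40 to −0.25 for the base and −0.35 to −0.26 for the alpha ring. The ranges of base, lid and alpha ring overlapped with each other, and that of the beta genes lay below that of the alpha ring.

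Subunits and chaperones were set apart within each combination library. The chaperone with the highest relative level stood at −0.01 (PAAF1) in replicate 1, 0.05 (PAAF1) in replicate 2 and 0.07 (PSMD9) in replicate 4. Of the 28 subunits, 25, 23 and 27 lay above that value in the same libraries. In the MI-503 libraries no subunit lay above the highest chaperone, which was PAAF1 in all 4.

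**Figure D3:**
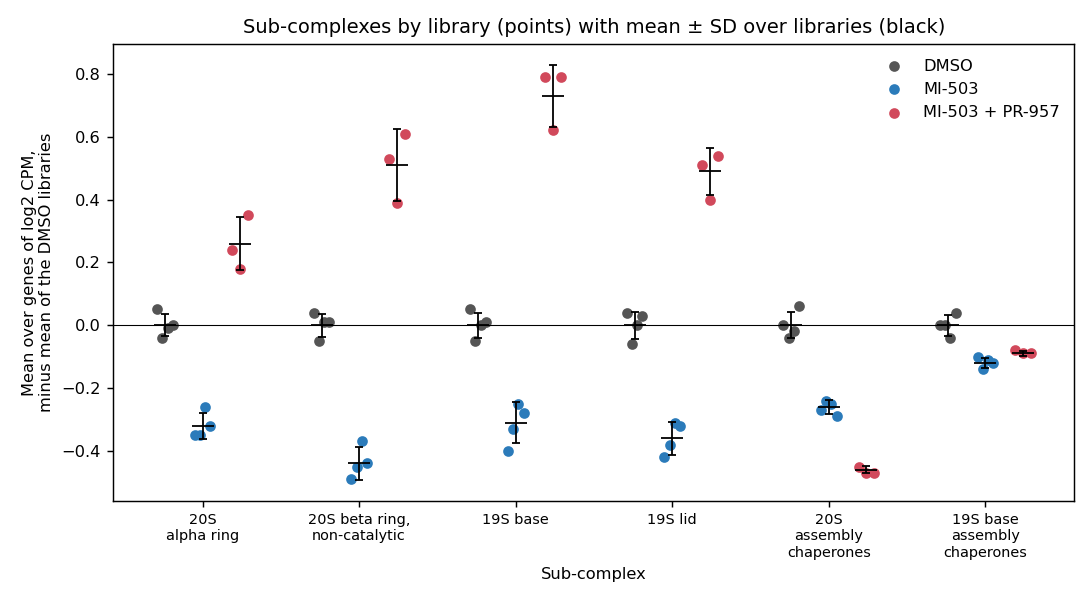
Mean over the genes of each sub-complex of log2 CPM, relative to the mean of the DMSO libraries, with 1 point per library and the mean ± SD over the 4 DMSO, 4 MI-503 and 3 combination libraries. The 19S base is highest in the combination (0.62 to 0.79), and the 20S assembly chaperones are lowest (−0.47 to −0.45).

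Within the 20S alpha ring, which forms the gate of the core, PSMA1 moved apart from its neighbors. Its CPM were 131.5, 130.8, 128.4 and 135.1 in DMSO replicates 1 to 4, 119.7, 112.1, 117.6 and 114.7 in MI-503 replicates 1 to 4 and 233.5, 212.2 and 240.3 in the combination. Every combination library thus lay above every other library, and MI-503 lay below DMSO by a small margin. The log2 fold change was 0.98 (SE 0.05, edgeR adjusted p = 5.44e-11) between the combination and MI-503, and its fall in MI-503 was the smallest of the ring (−0.18, SE 0.04, edgeR adjusted p = 0.00219). PSMA7 (0.69), PSMA5 (0.64), PSMA2 (0.53) and PSMA4 (0.53) followed, and against DMSO these had log2 fold changes of 0.45, 0.27, 0.14 and 0.24.

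PSMA3 and PSMA6, also of the alpha ring, returned to about the DMSO level. PSMA3 had CPM of 113.8, 108.3, 106.7 and 112.0 in DMSO, 81.3, 85.3, 85.1 and 82.1 in MI-503 and 99.7, 102.4 and 111.6 in the combination. The combination overlapped with DMSO and lay above all MI-503 libraries. Against DMSO its log2 fold change was −0.08 (SE 0.05, edgeR adjusted p = 0.158), and that of PSMA6 was −0.02 (SE 0.06, edgeR adjusted p = 0.718). Without combination replicate 4, PSMA3 was called lower than in DMSO (−0.13, edgeR adjusted p = 0.0238) and PSMA2, whose libraries overlapped with DMSO, was no longer called higher (0.11, edgeR adjusted p = 0.0705).

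The listed non-catalytic beta genes PSMB1, PSMB2 and PSMB4 encode parts of the inner rings that hold the catalytic sites. PSMB3 is not on the list. PSMB4 had CPM of 265.9, 254.2, 266.2 and 262.6 in DMSO, 202.7, 210.0, 224.9 and 209.3 in MI-503 and 465.7, 415.4 and 479.8 in the combination. No group overlapped with another. The log2 fold change between the combination and MI-503 was 1.10 (SE 0.05, edgeR adjusted p = 4.87e-11), followed by 1.08 for PSMB2 and 0.67 for PSMB1. In MI-503, PSMB2 and PSMB1 had the lowest values of the subunits, at −0.51 and −0.49 on the log2 scale (SE 0.05 each), next to −0.46 (SE 0.06) for PSMD1. PSMB1 exceeded DMSO in the combination by only 0.18 (SE 0.05, edgeR adjusted p = 0.0066).

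In the 19S base, the scaffolds and ubiquitin receptors (PSMD1, PSMD2, PSMD4 and ADRM1) had a median log2 fold change of 1.26 between the combination and MI-503. The 5 listed ATPases, which leave out PSMC4, had one of 1.02. PSMD2, the scaffold that also docks ubiquitin shuttle proteins, had CPM of 266.1, 238.8, 258.0 and 266.3 in DMSO, 186.8, 199.0, 207.2 and 210.5 in MI-503 and 531.8, 453.2 and 522.1 in the combination. The combination level was 2.502-fold that of MI-503 (log2 1.32, SE 0.06, edgeR adjusted p = 4.00e-11) and 1.95-fold that of DMSO. ADRM1, the ubiquitin receptor that recruits the deubiquitinase UCHL5, had CPM of 132.5, 119.1, 126.8 and 119.9 in DMSO, 87.1, 93.1, 99.4 and 95.6 in MI-503 and 226.0, 211.4 and 242.3 in the combination. Its log2 fold change against MI-503 was 1.27 (SE 0.06, edgeR adjusted p = 3.03e-11). PSMD1, the other scaffold, stood at 1.24 and the receptor PSMD4 at 0.89.

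The ATPases unfold the substrate and open the gate. PSMC2 (1.11), PSMC6 (1.05) and PSMC1 (1.02) had larger log2 fold changes between the combination and MI-503 than PSMC3 (0.77) and PSMC5 (0.76), with SE of 0.05 to 0.07. PSMC5 had CPM of 155.6, 145.6, 150.8 and 155.3 in DMSO, 132.2, 130.2, 145.8 and 140.2 in MI-503 and 238.7, 219.6 and 238.4 in the combination. It was the 1 subunit whose DMSO and MI-503 libraries overlapped, and its fall was not called without MI-503 replicate 2 (−0.12, edgeR adjusted p = 0.0553) or with upper-quartile factors (−0.09, edgeR adjusted p = 0.107). PSMC3 spread most in the combination, with 208.2, 213.4 and 270.5 CPM in replicates 1, 2 and 4, all above its highest DMSO library (179.2 CPM). For PSMC1, 61.4% of the annotated exon bases also belong to exons of NRDE2, and 31.7% of the 100-base windows of its transcript occur elsewhere in hg38, so that its counts rest on the remaining sequence. Exons of PSMC2 share 22.9% of their bases with SLC26A5.

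In the 19S lid, PSMD11, which bridges the 19S particle and the 20S core (chr17:32444510-32483319, hg38), had the largest fitted fold change of the 36 genes in both comparisons of the combination. Its CPM were 98.7, 85.7, 90.1 and 91.1 in DMSO, 64.7, 66.6, 69.3 and 74.0 in MI-503 and 208.5, 167.3 and 189.6 in the combination. The lowest combination library thus lay well above the highest DMSO library. The level was 2.75-fold that of MI-503 (log2 1.46, SE 0.07, edgeR adjusted p = 4.79e-11) and 2.06-fold that of DMSO (log2 1.05, SE 0.07, edgeR adjusted p = 6.07e-10). The deubiquitinase PSMD14 followed with 1.11 against MI-503, and had CPM of 84.5, 77.0, 79.1 and 84.4 in DMSO, 55.2, 64.2, 62.5 and 61.7 in MI-503 and 137.5, 123.9 and 134.2 in the combination. PSMD3 (1.06), PSMD6 (1.02), PSMD13 (0.88), PSMD7 (0.68) and PSMD12 (0.66) came next.

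PSMD8 and SEM1, the remaining lid genes, stayed near DMSO. SEM1, a small acidic subunit that also binds BRCA2, had CPM of 79.2, 81.5, 84.8 and 77.8 in DMSO, 62.3, 62.4, 66.4 and 60.2 in MI-503 and 72.6, 77.5 and 88.1 in the combination. Combination and DMSO overlapped, and the fitted difference was −0.03 (SE 0.06, edgeR adjusted p = 0.702). PSMD8 gave 0.06 (SE 0.05, edgeR adjusted p = 0.354) in the same comparison, and was called higher under upper-quartile scaling (0.12, edgeR adjusted p = 0.0259). Both were higher than in MI-503, PSMD8 by 0.41 and SEM1 by 0.34 on the log2 scale.

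The 20S assembly chaperones act as pairs, PSMG1 with PSMG2 and PSMG3 with PSMG4, that line up the alpha subunits before the beta subunits join. PSMG1 had CPM of 57.6, 54.9, 56.8 and 61.0 in DMSO, 38.3, 38.1, 41.1 and 40.6 in MI-503 and 30.9, 30.9 and 35.4 in the combination. The groups did not overlap, and the gene stood lower with each added agent. Its log2 fold change was −0.54 (SE 0.05, edgeR adjusted p = 3.66e-07) in MI-503 against DMSO, the lowest of the 36 genes, and −0.83 (SE 0.06, edgeR adjusted p = 2.47e-09) in the combination against DMSO. PSMG4 had CPM of 37.9, 41.7, 39.3 and 41.9 in DMSO, 34.0, 35.6, 32.1 and 32.6 in MI-503 and 26.3, 28.0 and 27.2 in the combination. It was likewise called lower in all 3 comparisons, with −0.26, −0.57 and, between the combination and MI-503, −0.31 (SE 0.06, edgeR adjusted p = 0.000286).

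PSMG2 and PSMG3 moved less. PSMG2 had CPM of 58.5, 54.2, 54.6 and 59.5 in DMSO, 52.1, 51.2, 52.0 and 51.9 in MI-503 and 50.7, 45.6 and 42.1 in the combination. Every MI-503 library lay below every DMSO library, yet the difference was not called (−0.13, edgeR adjusted p = 0.0524), and was called without DMSO replicate 2 (0.0394) or 3 (0.049). It was called lower in the combination against DMSO (−0.29, SE 0.06, edgeR adjusted p = 0.000311). Against MI-503 the difference was −0.16 (SE 0.06, edgeR adjusted p = 0.0309), and this call was lost when any 1 of the 4 MI-503 replicates was left out (edgeR adjusted p between 0.0505 and 0.0591). PSMG3 lay between 33.0 and 38.8 CPM in all 11 libraries and was called only against DMSO in the combination (−0.16, SE 0.05, edgeR adjusted p = 0.0173). That call was lost under upper-quartile scaling (edgeR adjusted p = 0.16), without the filter on low counts (0.126) and with the stricter filter (0.0509). In MI-503 against DMSO it was called only without MI-503 replicate 2 (−0.14, edgeR adjusted p = 0.0422) or DMSO replicate 2.

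The 19S base assembly chaperones escort pairs of ATPases into the base ring. PAAF1 had CPM of 22.0, 22.9, 21.9 and 21.7 in DMSO, 21.9, 22.3, 23.0 and 20.8 in MI-503 and 21.9, 22.9 and 20.8 in the combination. It was not called in any comparison, and its fitted differences were −0.01, −0.02 and −0.01 on the log2 scale, each with an SE of 0.06. PSMD10, also known as the oncoprotein gankyrin, lay at 29.6 to 33.4 CPM in DMSO, 28.1 to 29.9 CPM in MI-503 and 26.1 to 27.4 CPM in the combination, and was called lower in the combination against DMSO (−0.22, SE 0.06, edgeR adjusted p = 0.00231). Against MI-503 it was not called (−0.12, SE 0.06, edgeR adjusted p = 0.0809), but was without combination replicate 4 (−0.18, edgeR adjusted p = 0.0264). PSMD9 rose from 42.8 to 44.8 CPM in MI-503 to 46.2 to 51.8 CPM in the combination (0.17, SE 0.05, edgeR adjusted p = 0.0129), which was not called without combination replicate 4 (0.09, edgeR adjusted p = 0.202). PSMD5 was called lower in MI-503 against DMSO (−0.18, SE 0.06, edgeR adjusted p = 0.0186) with overlapping libraries, and this call was lost in 5 of the 19 other fits, namely upper-quartile scaling and those without DMSO replicate 4, MI-503 replicate 2, MI-503 replicate 3 or combination replicate 2 (edgeR adjusted p between 0.0597 and 0.119).

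**Figure D4:**
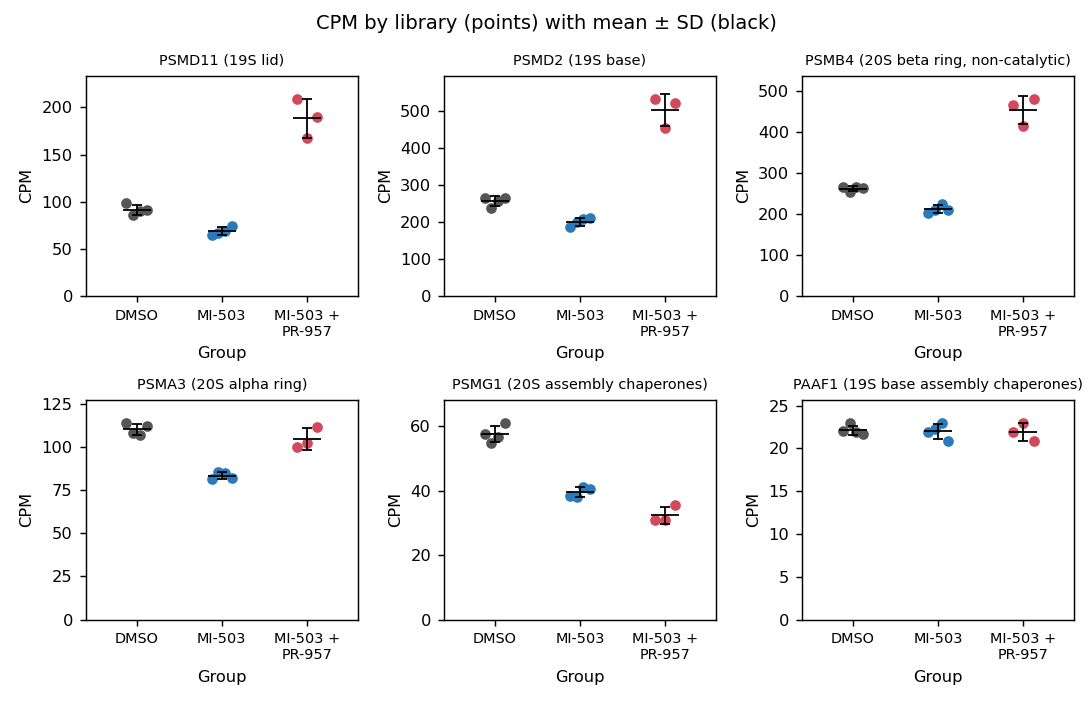
CPM of 6 of the genes by library, with the mean ± SD of the 4 DMSO, 4 MI-503 and 3 combination libraries. PSMD11, PSMD2 and PSMB4 lie above DMSO in all combination libraries, PSMA3 overlaps with DMSO (99.7 to 111.6 against 106.7 to 113.8 CPM), PSMG1 falls to 30.9 to 35.4 CPM and PAAF1 stays between 20.8 and 23.0 CPM.

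Levels of different genes were compared per length as TPM, the count per exon base scaled to the same total in every library, computed from the counts and the deposited exon lengths. In DMSO the median was 150.2 TPM over the 28 subunits and 44.6 TPM over the 8 chaperones. PSMB4 was highest (672.4 ± 15.04 TPM, SD, n = 4), followed by PSMB1 (491.6 ± 21.8) and PSMA7 (482.3 ± 20.2), which differed from each other by less than the SD of either. PAAF1 (8.24 ± 0.23 TPM) and PSMG4 (8.70 ± 0.51) were lowest and again within the larger SD of each other, and PSMC1 (27.3 ± 0.66) was the lowest subunit. In the combination PSMB4 reached 1245 TPM, and the medians were 222.4 TPM over the subunits and 41.4 TPM over the chaperones. Although the alpha subunits occur in equal number in each particle, their TPM in DMSO ran from 70.2 (PSMA5) to 482.3 (PSMA7). Much of this span lies in the length used as divisor, 3815 bases for PSMA5 and 962 for PSMA7. Before division by length the DMSO means of these genes were 113.9 and 197.2 CPM. Which exons are used in these cells was not tested. The deposited exon length is the union of all annotated exons, which was 10891 bases for PSMG4, 5926 for SEM1 and 5951 for PSMC1. The canonical transcript, a single spliced form per gene, has only 785 bases for PSMG4 and 458 for SEM1, and 4390 for PSMC1. TPM of PSMG4 and SEM1 may thus be understated many-fold, and that of PSMC1 less, where long exons are little used. In DMSO PSMG4 averaged 40.2 CPM and PAAF1 22.1 CPM, so that the place of PSMG4 beside PAAF1 in TPM is uncertain. For PSMC1, 61.4% of the deposited exon bases also belong to exons of NRDE2, and fragments that mapped to several genes were not counted. Its TPM may be understated for this reason as well, so that its place as the lowest subunit is uncertain.

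The other genes of the pathway were read from lists that are no part of the 36. Of 12 catalytic subunits, activators and the maturation factor POMP, 10 were tested, and in the combination against MI-503 5 were called higher and 2 lower. Over all tested genes the shares were 23.6% higher and 23.8% lower. The constitutive catalytic genes PSMB7 (1.09, SE 0.06) and PSMB6 (0.98, SE 0.08) rose by amounts near those of PSMB4 and PSMB2, whereas PSMB5, the chymotrypsin-like site, rose by 0.52 (SE 0.05). POMP, which drives maturation of the 20S core, rose by 0.45 (SE 0.06). Unlike these, PSMB8, the target of PR-957, was lower by 0.66 (SE 0.08, edgeR adjusted p = 5.27e-06), and PSMB10 gave −0.08 (SE 0.07, edgeR adjusted p = 0.388). PSMB9 had 10 counts over all libraries and PSME1 had 0, and neither was tested. The hg38 annotation in the files places PSMB8 and PSMB9 on 8 contigs and PSME1 on 2, and fragments that map to several places were not counted, whereas each of the 36 genes lies on 1 contig. In MI-503 against DMSO the list had 7 genes called lower and 0 higher, where 29.3% of all tested genes were called lower and 22.0% higher. In the combination against DMSO it had 3 higher and 4 lower of the 10 tested. These counts lay near the background of 31.7% higher and 32.8% lower.

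NFE2L1, the factor named above, was itself at 112.1 CPM on average in MI-503 and 137.4 CPM in the combination (0.29, SE 0.04, edgeR adjusted p = 2.33e-05), and its relative NFE2L2 rose by 0.29 (SE 0.06, edgeR adjusted p = 0.0006). The deglycosylase NGLY1, needed to activate NFE2L1, rose by 0.15 (SE 0.05, edgeR adjusted p = 0.018), and the protease DDI2 that cuts it gave −0.02 (SE 0.05, edgeR adjusted p = 0.733). Of 19 genes of NFE2L1 control and proteasome-associated factors, 14 were called higher and 2 lower between the combination and MI-503, beside 23.6% and 23.8% of all tested genes. Between the combination and DMSO 12 were called higher and 4 lower, beside 31.7% and 32.8%. Between MI-503 and DMSO 2 were called higher and 13 lower, beside 22.0% and 29.3%. ZFAND5 (0.94, SE 0.04), which binds the 19S particle, and the scaffold ECPAS (0.97, SE 0.05) had the smallest adjusted p between the combination and MI-503.

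As a comparison, complexes that resemble the lid in build or are of similar size were read in the same way. The COP9 signalosome, whose subunits mirror those of the lid, had 3 of 9 genes called higher and 0 lower between the combination and MI-503, with a median of 0.07, where COPS3 gave 0.23 and COPS2 0.26. The translation factor eIF3, which shares the same core folds, had 3 higher and 3 lower of 11 tested genes (median −0.05), where EIF3A gave −0.20 and EIF3G 0.16. The cytosolic chaperonin CCT had 0 higher and 5 lower of 8 genes (median −0.13), where CCT7 and CCT5 each gave −0.19. Over all tested genes the shares were 23.6% higher and 23.8% lower in this comparison, so that the COP9 and eIF3 counts of higher genes lay near the background. In MI-503 against DMSO, 8 of 9 COP9 genes (median −0.25) and 8 of 8 CCT genes (median −0.43) were called lower. For eIF3 4 of 11 genes were (median −0.05), beside 29.3% of all tested genes (median −0.03), and no gene of these complexes was called higher. Against DMSO the combination had 6 COP9, 5 eIF3 and 8 CCT genes called lower and 3 eIF3 genes called higher, where 32.8% of all tested genes were called lower and 31.7% higher.

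**Figure D5:**
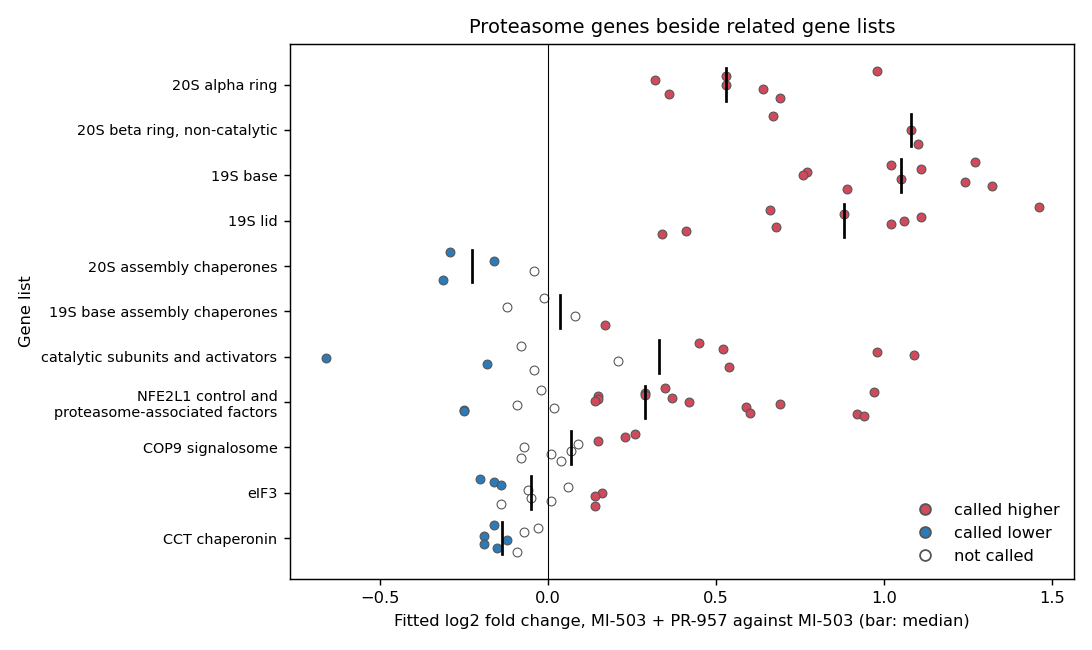
Fitted log2 fold change of the combination against MI-503 for each tested gene of the 6 sub-complexes and of 5 related lists, with a bar at the median of each list. The subunit groups have medians between 0.53 and 1.08, the COP9, eIF3 and CCT lists between −0.13 and 0.07.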

How the data were processed

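RNA-seq libraries of MOLM-13 cells had been prepared with a TruSeq kit and sequenced as read pairs. The authors deposited raw counts, 1 whole number per gene and library. Per the labels and file headers the authors trimmed with Trimmomatic 0.39, aligned to hg38 with STAR 2.7.10a and counted exons of the RefSeq annotation with featureCounts 2.0.1, without regard to strand and leaving out fragments that mapped to several places or to several genes. The headers show a filter on the alignments whose rule was not stated. Tables in which the authors list log2 fold changes and p-values were not used. The joined table differed from the single libraries in 0 cells. No pair of replicates agreed within sampling noise. The chi-square per degree of freedom ran from 2.15 to 5.97 in DMSO, 1.71 to 4.68 in MI-503 and 4.59 to 33.32 in the combination. The model shares 1 estimate of the spread over all groups, so that SE and p-values for the combination may be too small.

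Python 3.11.15 and R 4.3.3 were used, the tests being those of edgeR 4.0.16. Of 38557 genes, 11740 had no count and 14683 passed filterByExpr (minimum count 10, minimum total 15), including all 36 described here. All 11 libraries entered 1 quasi-likelihood model that fitted each group's mean after TMM scaling (factors 0.956 to 1.056), with 8 residual degrees of freedom and a biological coefficient of variation of 6.14%. Tests were two-sided, adjusted by Benjamini-Hochberg over all tested genes and called at an adjusted p under 0.05. The approach was tested on simulated data. In these, far fewer genes changed than were called here, and all groups had the same spread. CPM are counts scaled to the TMM-corrected library total, and 0.5 was the prior count on the log2 scale. Alternatives were RLE and upper-quartile factors, no filter, a stricter filter (minimum count 50), DESeq2 1.42.0, limma-voom 3.58.1, a replicate block, only the groups compared, an adjusted p under 0.01, and leaving out each library. Samples were not treated as paired by replicate number, since 1 of 10 same-numbered pairs had a correlation of deviations over 0.1 (range −0.10 to 0.14). Such low values cannot exclude a pairing.

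The 36 genes and the other lists were chosen with earlier results of these data known. Named were all 36 genes, the catalytic genes and POMP, the NFE2L1 genes above, and, from the remaining lists, the 2 genes lowest in adjusted p for a comparison. At totals of 18891243 to 41153974 fragments each of the 36 genes held 457 to 22526 counts per library. Some markers of other cell types are not reported here.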

Additional observations from a re-analysis of the deposited data

Results flagged for a closer look

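PSMG3 in DMSO replicate 2 stood at 36.53 CPM, below the other DMSO libraries at 38.72 to 38.82 CPM. The gap to the nearest library was 0.958 of the range of the group, above the 95% critical value of Dixon's test for 4 samples. It was the only such value in 72 groups of 4 libraries, and chance alone gives about 1 in 20. Without this library PSMG3 was called lower in MI-503 against DMSO (−0.13, edgeR adjusted p = 0.0473).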

How the results depend on the processing

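Each of the 36 genes was recomputed under 20 alternatives per comparison. Of 720 values each, 707 (MI-503 against DMSO), 712 (combination against DMSO) and 711 (combination against MI-503) kept their side of the threshold. No value that was called in either fit changed direction. Values that were not called could change sign, as for PSMA6 in the combination against DMSO (−0.02, with alternatives from −0.10 to 0.04). The median over the 36 genes in MI-503 against DMSO moved from −0.31 to −0.25 with upper-quartile factors and to −0.27 with only the 2 groups compared, and lay between −0.34 and −0.27 when 1 library was left out. For the combination that range was 0.33 to 0.45 against DMSO and 0.60 to 0.71 against MI-503, each lowest without combination replicate 4. The median of the 19S base assembly chaperones changed sign to 0.01 with upper-quartile factors against DMSO and to −0.01 and −0.02 without combination replicates 1 and 2 against MI-503 (range −0.02 to 0.06). The cause was not tested. In 19 of 19 other fits the 19S base had the highest median of the subunit groups against DMSO, whereas against MI-503 the beta genes had it in 18 and the base in 1, and the alpha ring had the lowest in all of them. With the replicate block 32 genes were called lower in MI-503, 24 higher and 5 lower in the combination against DMSO, and 29 higher and 3 lower against MI-503, as without it. Fewer letters in the ARE search (TGANNNNGC) gave 20 genes with a match (62.5%) in place of 12 (37.5%). Over all genes in the RefSeq table the share was then 47.1% in place of 23.5%. Calls near the threshold, such as PSMD10 against MI-503 with RLE factors (−0.14, adjusted p = 0.05), rest on 3 and 4 libraries a group.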
